A study of Ovis aries with 12 samples.

Results

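The genes described here are regulators and matrix genes of sclerotome and cartilage differentiation, followed across whole sheep embryos of 2 breeds and 2 ages. They were chosen by name: SOX9, SOX5, SOX6, PAX1, PAX9, NKX3-2, ACAN, MIA, MATN1 and HAPLN1. Of these 10 genes, 9 were found among the 26247 genes listed. The table gives 8 of them by symbol, MIA was named through its NCBI gene number in a RefSeq gene table, and NKX3-2 is not analysed here. The embryos came from Hulunbuir Short-tail sheep, the experimental breed, and from Ujumqin sheep, the control breed, and were taken at day 16 or day 25. There were 3 libraries in each of the 4 groups (Ujumqin day 16, Hulunbuir day 16, Ujumqin day 25 and Hulunbuir day 25), each made in bulk from the RNA of enzymatically dissociated embryos with no sorting step given. No treatment or engineered allele is given for any group, so breed and age are the labelled differences. Whether the replicates of a group are separate embryos or litters is not stated in the labels. The p-values therefore measure only how these samples spread, which may be technical.

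The sclerotome is the ventral part of each somite, and its cells form the vertebrae, the intervertebral discs and the ribs. Hedgehog ligands from the notochord and floor plate induce PAX1, PAX9 and NKX3-2 in it, and these transcription factors are followed by SOX9, the master regulator of cartilage, which acts with its partners SOX5 and SOX6. Together they switch on the genes of the cartilage matrix. Aggrecan (ACAN) and link protein (HAPLN1) both bind hyaluronan. Matrilin 1 (MATN1) is an adaptor protein that connects matrix components, and MIA encodes a small protein secreted by cartilage cells. In bulk RNA from whole embryos, fewer cells of a type and less RNA per cell cannot be told apart, and several of these genes are also used outside cartilage: SOX9 in neural progenitors, neural crest and gonad, PAX1 and PAX9 in the pharyngeal pouches, and HAPLN1 in the heart.

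The members lie on different chromosomes in the Oar_v3.1 assembly, except that PAX9 and ACAN are both on chromosome 18. SOX9 (chromosome 11, 57796760 to 57800093) spans 3334 bases and MIA (chromosome 14, 49179581 to 49180863) spans 1283 bases. SOX5 (chromosome 3, 190935216 to 191399186) and SOX6 (chromosome 15, 35537489 to 36100232) are the long genes of the set, at 463971 and 562744 bases. PAX1 lies on chromosome 13 (39999363 to 40013066) and PAX9 on chromosome 18 (45754809 to 45767637). MATN1 lies on chromosome 2 (235694002 to 235703365), HAPLN1 on chromosome 5 (80821300 to 80855594) and ACAN on chromosome 18 (19520823 to 19560023). A cartilage or chondrocyte term stood in the table's gene ontology column for 4 of the 9 genes (SOX9, SOX5, SOX6 and MATN1), a sclerotome term for PAX1, and a hyaluronic acid binding term for ACAN and HAPLN1. SOX5 overlaps 1 other listed gene, a small RNA family entry, and the other members overlap none.

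Total counts per library ran from 43131962 to 55455815 at day 16 and from 30464606 to 39643588 at day 25. Replicates varied more at day 16 (biological coefficient of variation 43.8%) than at day 25 (18.1%). Genes with at least 1 FPKM (fragment counts scaled by gene length and library size) in at least 3 of the 12 libraries were tested, 14595 in all. The filter was passed by 8 members and not by ACAN. PAX9 and MATN1 reached 1 FPKM in 8 libraries each, of which 2 were of day 16. Both thus passed only with libraries of day 25, which favours a rise with age. Breed differences were fitted within the 6 libraries of each age, and age differences over all 12 libraries. Log2 changes come from counts scaled by TMM and are followed by ± the standard error, whereas FPKM are as deposited. On the deposited FPKM scale the median gene at day 25 stood 0.29 higher (log2) in Hulunbuir than in Ujumqin, against 0.03 in the count fit, so FPKM ratios at day 25 lean towards Hulunbuir. The adjusted p-values were obtained by Benjamini-Hochberg over all tested genes from the quasi-likelihood test of edgeR, and a gene is called at an adjusted p under 0.05.

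Most tested members rose with age in Ujumqin embryos, SOX9, MIA and MATN1 rose in both breeds, and at day 25 members differed between the breeds in both directions. From day 16 to day 25 in Ujumqin, 6 of 8 tested members rose and HAPLN1 fell, where 63.6% of all tested genes were called (30.7% higher and 32.9% lower). Among the 6 were PAX9 and MATN1, which passed the filter only with day 25 libraries. In Hulunbuir, 3 rose, HAPLN1 fell and 4 were not called, where 40.5% of all genes were called (18.9% higher and 21.6% lower). At day 25, 3 members were higher in Hulunbuir (SOX9, PAX1 and MATN1), 2 were lower (MIA and HAPLN1) and 3 were not called, where 46% of all genes were called (23.3% higher and 22.7% lower). At day 16 no member was called between the breeds, where 0.0206% of all genes (3 genes, 0.0137% higher and 0.00685% lower) were called and 2955 genes had an unadjusted p under 0.05. The day 16 result depends on how the spread is estimated: with 1 spread shared by all 12 libraries, SOX9, MIA, MATN1 and HAPLN1 were called and 16.8% of all genes, and DESeq2 also called 4 members and 11% of all genes. With the replicate number as a block, 0 members and 2.01% of all genes were called at day 16. In that shared fit MIA was the only member called between the breeds at day 25 (adjusted p = 0.00698), where 16.7% of all genes were called. The breed difference changed with age, by the interaction term of that shared fit, for 3 members (MIA, MATN1 and HAPLN1). By the same term 19.2% of all genes were called (8.89% higher and 10.3% lower). FPKM of the breeds did not overlap for 3 tested members at day 16, against 24.4% of all genes, and for 4 at day 25, against 62.3%. FPKM of the ages did not overlap for 7 in Ujumqin, against 67.9% of all genes, and for 6 in Hulunbuir, against 55%.

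**Figure D1:**
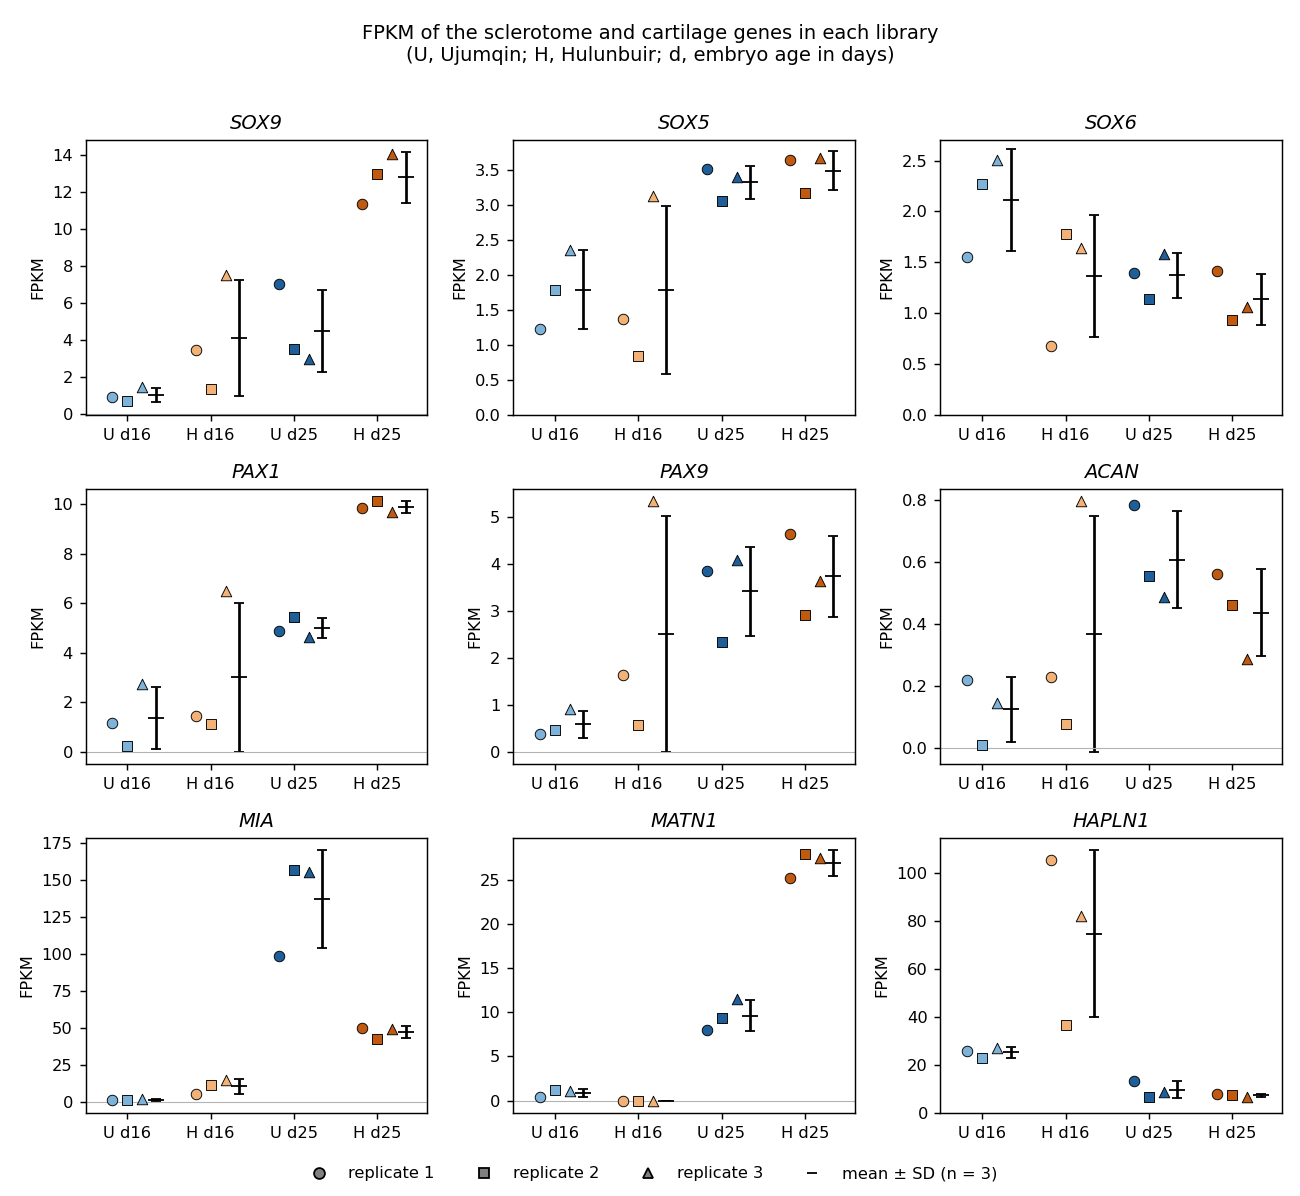
FPKM of the 9 genes in each of the 12 libraries, by breed and age. Points are libraries, with the shape giving the replicate number, and the bar beside them is the mean ± SD over 3 libraries. SOX9, PAX1 and MATN1 are highest in the Hulunbuir day 25 libraries, MIA is highest in the Ujumqin day 25 libraries and HAPLN1 in the Hulunbuir day 16 libraries. MATN1 is at 0 counts in all 3 Hulunbuir day 16 libraries.

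SOX9, the regulator that commits mesenchyme to cartilage, was higher at day 25 than at day 16 in both breeds and higher in Hulunbuir than in Ujumqin at day 25. Its FPKM in replicates 1, 2 and 3 were 0.953, 0.702 and 1.48 in Ujumqin day 16 embryos. They were 3.47, 1.35 and 7.53 in Hulunbuir day 16 embryos. At day 25 they were 7.05, 3.52 and 2.98 in Ujumqin and 11.3, 13.0 and 14.1 in Hulunbuir. The Hulunbuir day 25 libraries stood above all 9 others, and Ujumqin day 16 held the lowest ones but overlapped with Hulunbuir day 16. Neighbours below the Hulunbuir day 25 mean, 4.52 ± 2.21 FPKM (SD, n = 3 here and below) in Ujumqin day 25 and 4.12 ± 3.14 in Hulunbuir day 16, did not differ beyond their spread. The breed difference at day 25 was 1.19 ± 0.28 on the log2 scale (adjusted p = 0.00826) and stayed under the threshold when each of the 6 libraries was left out. It was not called in the fit with 1 spread shared by all 12 libraries. SOX9 rose by 2.24 ± 0.50 with age in Ujumqin (adjusted p = 0.00242) and by 1.57 ± 0.48 in Hulunbuir (adjusted p = 0.0232). The Hulunbuir call was lost without day 16 replicate 1 (0.066), day 25 replicate 2 (0.0592) or day 25 replicate 3 (0.0655). At day 16 the breed difference was 1.82 ± 0.61 (adjusted p = 0.175).

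SOX5 and SOX6 encode closely related proteins that have no activation domain of their own and assist SOX9 on cartilage gene enhancers. In the breed comparison neither was called at either age. SOX5 was at 1.22, 1.79 and 2.36 FPKM in Ujumqin day 16 embryos and at 1.37, 0.845 and 3.13 in Hulunbuir day 16 embryos, so the breeds overlapped. It was at 3.51, 3.06 and 3.39 FPKM in Ujumqin and 3.64, 3.16 and 3.66 in Hulunbuir at day 25, which again overlapped. The fitted breed difference at day 25 was -0.26 ± 0.10 (adjusted p = 0.0634), with the opposite sign on the deposited FPKM scale (0.055 and 0.070 with pseudocounts of 1 and 0.1). SOX5 rose by 1.04 ± 0.33 from day 16 to day 25 in Ujumqin (adjusted p = 0.0174). That call was lost without Ujumqin day 16 replicate 1 (0.0796), without Ujumqin day 25 replicate 3 (0.0548), and in limma on the FPKM scale (0.0551 and 0.0728). In Hulunbuir the change was 0.88 ± 0.33 (adjusted p = 0.052), and without day 16 replicate 3 it was called (0.00195).

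SOX6 was the member with no call in any comparison. It was at 1.55, 2.27 and 2.51 FPKM in Ujumqin and 0.674, 1.78 and 1.65 in Hulunbuir at day 16. At day 25 it was at 1.40, 1.14 and 1.58 FPKM in Ujumqin and 1.42, 0.935 and 1.06 in Hulunbuir. All neighbouring groups overlapped, and the means ran from 1.14 ± 0.249 in Hulunbuir day 25 to 2.11 ± 0.50 FPKM in Ujumqin day 16. The breed difference was -0.68 ± 0.46 at day 16 (adjusted p = 0.428) and -0.60 ± 0.25 at day 25 (adjusted p = 0.081). The age difference was -0.47 ± 0.39 in Ujumqin (adjusted p = 0.3) and -0.44 ± 0.39 in Hulunbuir (adjusted p = 0.389).

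Ratios within a library do not depend on library scaling and show the balance of the SOX trio. The ratio of SOX5 to SOX6 in FPKM was 0.789, 0.785 and 0.939 in Ujumqin day 16 libraries and 2.03, 0.475 and 1.9 in Hulunbuir day 16 libraries. At day 25 it was 2.50, 2.68 and 2.15 in Ujumqin and 2.57, 3.38 and 3.45 in Hulunbuir, so that SOX5 exceeded SOX6 in every library of day 25. The ratio of SOX9 to SOX5 was 0.781, 0.393 and 0.629 in Ujumqin day 16 libraries and 2.53, 1.60 and 2.40 in Hulunbuir day 16 libraries, which did not overlap. At day 25 it was 2.01, 1.15 and 0.879 in Ujumqin and 3.12, 4.11 and 3.84 in Hulunbuir, which did not overlap either. These ratios are descriptions and were not tested.

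**Figure D2:**
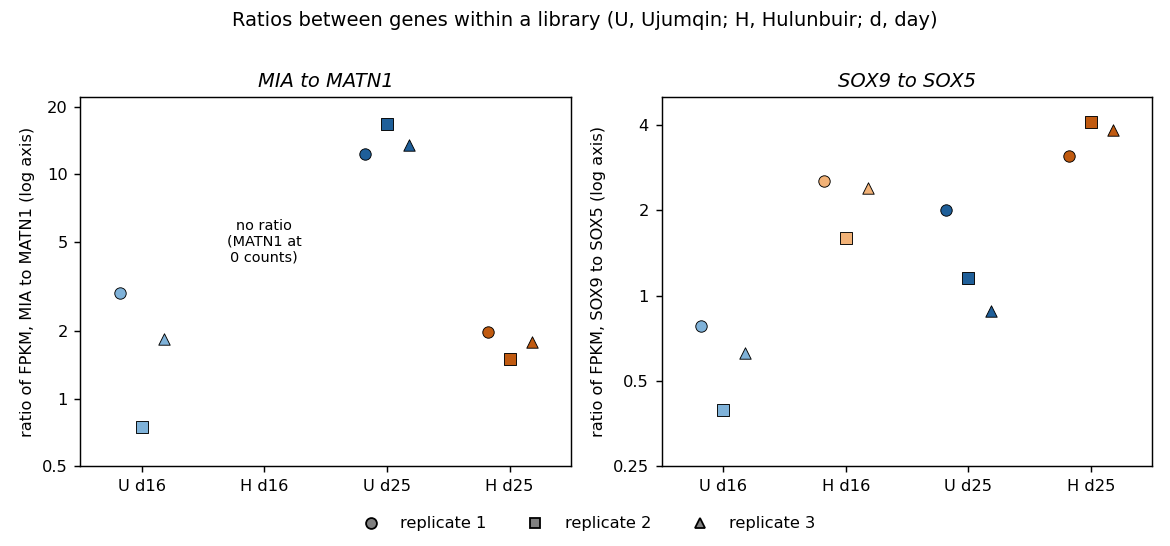
Ratio of FPKM of MIA to MATN1 (left) and of SOX9 to SOX5 (right) within each library, on log axes. Points are libraries, with the shape giving the replicate number, and no ratio exists for MIA to MATN1 in Hulunbuir day 16 libraries. At day 25 MIA to MATN1 is 12.3 to 16.7 in Ujumqin libraries and 1.51 to 1.99 in those of Hulunbuir, and SOX9 to SOX5 is higher in Hulunbuir at both ages.

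PAX1, an early sclerotome transcription factor needed for vertebral bodies and discs, was higher in Hulunbuir than in Ujumqin embryos at day 25. It was at 4.87, 5.44 and 4.65 FPKM in Ujumqin day 25 embryos and at 9.86, 10.1 and 9.68 in Hulunbuir day 25 embryos. The 2 groups did not overlap, and the Hulunbuir libraries lay within 1.05-fold of each other. The log2 difference was 0.66 ± 0.14 (adjusted p = 0.00557) and was called with each library left out. At day 16 PAX1 was at 1.15, 0.235 and 2.73 FPKM in Ujumqin and at 1.42, 1.13 and 6.48 in Hulunbuir, with replicate 3 highest in both breeds and wide overlap. The day 16 breed difference was 0.98 ± 0.91 (adjusted p = 0.567). PAX1 rose by 2.03 ± 0.71 with age in Ujumqin (adjusted p = 0.0267), a call lost without Ujumqin day 16 replicate 1 (0.0815) or any 1 of the 3 Ujumqin day 25 libraries (0.0509 without replicate 1, 0.0679 without replicate 2 and 0.0554 without replicate 3). In Hulunbuir the age change was 1.66 ± 0.70 (adjusted p = 0.0785), and it was called without day 16 replicate 3 (0.0131).

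PAX9 acts with PAX1 in the sclerotome and is also needed in pharyngeal pouches, limbs and teeth. Its FPKM were 0.382, 0.475 and 0.919 in Ujumqin and 1.64, 0.570 and 5.34 in Hulunbuir at day 16. At day 25 they were 3.85, 2.34 and 4.08 in Ujumqin and 4.64, 2.92 and 3.63 in Hulunbuir. Hulunbuir day 16 replicate 3 was the highest of all 12 libraries, and the day 25 groups overlapped. PAX9 rose by 2.67 ± 0.63 with age in Ujumqin (adjusted p = 0.00339), called with each library left out. In Hulunbuir the change was 0.52 ± 0.59 (adjusted p = 0.5), and without day 16 replicate 3 it was called (0.0377). The breed difference was 1.9 ± 0.78 at day 16 (adjusted p = 0.237) and -0.20 ± 0.27 at day 25 (adjusted p = 0.56), the latter positive on the FPKM scale (0.11 and 0.14). The ratio of PAX1 to PAX9 was 1.27, 2.32 and 1.14 in Ujumqin and 2.12, 3.46 and 2.66 in Hulunbuir at day 25, which overlapped.

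MIA had the widest range of levels among the members that were detected in every library, and its order across the 4 groups was complete, with no overlap between any neighbours. Its FPKM were 1.12, 0.884 and 1.92 in Ujumqin day 16 embryos and 4.94, 11.4 and 14.9 in Hulunbuir day 16 embryos. At day 25 they were 99, 157 and 156 in Ujumqin and 50.2, 42.3 and 49.1 in Hulunbuir. The breed with the higher level at day 16 was therefore the one with the lower level at day 25. MIA rose by 6.83 ± 0.46 on the log2 scale (114-fold) with age in Ujumqin (adjusted p = 1.76e-06) and by 2.03 ± 0.37 (4.08-fold) in Hulunbuir (adjusted p = 0.00153). At day 25 it was lower in Hulunbuir by 3.68-fold (log2 change -1.88 ± 0.20, adjusted p = 0.000196). At day 16 the change was 2.88 ± 0.57 (adjusted p = 0.101, and 0.0624 with the replicate number as a block). The breed by age interaction, the breed difference at day 25 minus that at day 16, was -4.80 ± 0.54 (adjusted p = 0.000607). For MIA, the interaction, both age changes and the day 25 breed difference were called with each library left out.

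MATN1, expressed by early cartilage cells, took the opposite course to MIA between the breeds. It had 31, 97 and 92 counts in the Ujumqin day 16 libraries (0.38, 1.18 and 1.04 FPKM) and 0 counts in each of the 3 Hulunbuir day 16 libraries. With a floor of 3 counts per library, which covers counting error only, MATN1 was at least 21.5-fold lower in Hulunbuir at day 16, where the 6-library fit gave an adjusted p of 0.1 and the 12-library fit 0.00121. At day 25 it was at 8.03, 9.38 and 11.5 FPKM in Ujumqin and at 25.3, 28.0 and 27.6 in Hulunbuir. The day 25 libraries did not overlap, and the difference was 1.15 ± 0.16 (2.22-fold, adjusted p = 0.000625). It was called with each library left out, but not in the 12-library fit. MATN1 rose by 3.61 ± 0.39 (12.2-fold) with age in Ujumqin (adjusted p = 4.88e-05) and was at least 681-fold higher at day 25 than at day 16 in Hulunbuir (adjusted p = 6.26e-06). The interaction had an adjusted p of 0.000486, and its fitted size is not given because it rests on the group at 0 counts. The ratio of MIA to MATN1 was 12.3, 16.7 and 13.5 in Ujumqin day 25 libraries and 1.99, 1.51 and 1.78 in Hulunbuir day 25 libraries, a separation that library scaling cannot alter.

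HAPLN1 fell with age in both breeds and was highest in Hulunbuir day 16 embryos. Its FPKM were 25.7, 22.8 and 27.3 in Ujumqin and 105, 36.9 and 82.1 in Hulunbuir at day 16. They were 13.5, 6.61 and 8.89 in Ujumqin and 7.82, 7.58 and 6.69 in Hulunbuir at day 25. All day 16 libraries stood above all day 25 libraries, the breeds did not overlap at day 16, and they overlapped at day 25. HAPLN1 fell by 1.26 on the log2 scale (SE 0.30, adjusted p = 0.00359) in Ujumqin and by 3.47 (SE 0.32, adjusted p = 3.71e-05) in Hulunbuir, where it was 11.1-fold lower at day 25. The interaction was -2.21 ± 0.42 (adjusted p = 0.00629). At day 16 the breed difference was 1.46 ± 0.33 (adjusted p = 0.122), and voom with a weight per group called it (0.0419), as the only member among 3.34% of all genes called. At day 25 HAPLN1 was lower in Hulunbuir by -0.71 ± 0.22 (adjusted p = 0.0309). That call was kept when Ujumqin day 25 replicate 2 was left out (0.00847) and lost without any other library of that age (0.0592 to 0.101), and limma on the FPKM scale did not make it (0.293 and 0.301).

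Summed heart markers, like HAPLN1, stood higher in the Hulunbuir libraries at day 16, with no call for either. The summed FPKM of the 6 heart and endocardial cushion markers found of a list of 8 ranged from 518 to 1118 in Hulunbuir day 16 libraries and from 75.9 to 219 in Ujumqin day 16 libraries, without overlap. At day 25 the sums were 298.8 to 381 in Ujumqin and 398 to 420.4 in Hulunbuir, on the FPKM scale that leans towards Hulunbuir. On counts 2 of the 6 were called higher at day 25, 1 lower and 3 not, where 46% of all genes were called. Their median log2 change was 0.04 against 0.03 over all tested genes. None of the 6 markers was at 0 in all libraries of a group. At day 16, 0 of the 6 were called between the breeds, where 0.0206% of all genes were called. From day 16 to day 25 the sums rose in Ujumqin, where HAPLN1 fell, and fell in Hulunbuir, as HAPLN1 did. On counts 2 of the 6 rose and 3 fell in Ujumqin (30.7% and 32.9% of all genes). In Hulunbuir 0 rose and 4 fell (18.9% and 21.6%). Among Hulunbuir day 16 libraries the sum was highest in replicate 3 and HAPLN1 in replicate 1. In Ujumqin day 16 both were highest in replicate 3. The part of the heart markers in the level of HAPLN1 was not tested.

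ACAN, the large proteoglycan that gives cartilage its stiffness, stayed under 1 FPKM in all 12 libraries and so was not tested in the main fit. It had 77, 4 and 56 counts in Ujumqin day 16 libraries (0.218, 0.0102 and 0.144 FPKM) and 83, 24 and 254 counts in Hulunbuir day 16 libraries (0.229, 0.0767 and 0.796 FPKM). At day 25 it was at 0.782, 0.554 and 0.485 FPKM in Ujumqin and at 0.562, 0.461 and 0.285 in Hulunbuir. Groups next to each other in mean FPKM overlapped, but within Ujumqin all day 25 libraries stood above all day 16 libraries. The span of ACAN is separated by 3400 bases from that of HAPLN3 (chromosome 18, 19563424 to 19571940), a link protein gene on the opposite strand. HAPLN3 was at 2.88, 3.32 and 2.29 FPKM in Ujumqin and 5.84, 4.38 and 4.84 in Hulunbuir at day 25, above ACAN in each of those libraries. Its breed difference was 0.50 ± 0.22 (adjusted p = 0.0939), and limma on the FPKM scale called it.

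**Figure D3:**
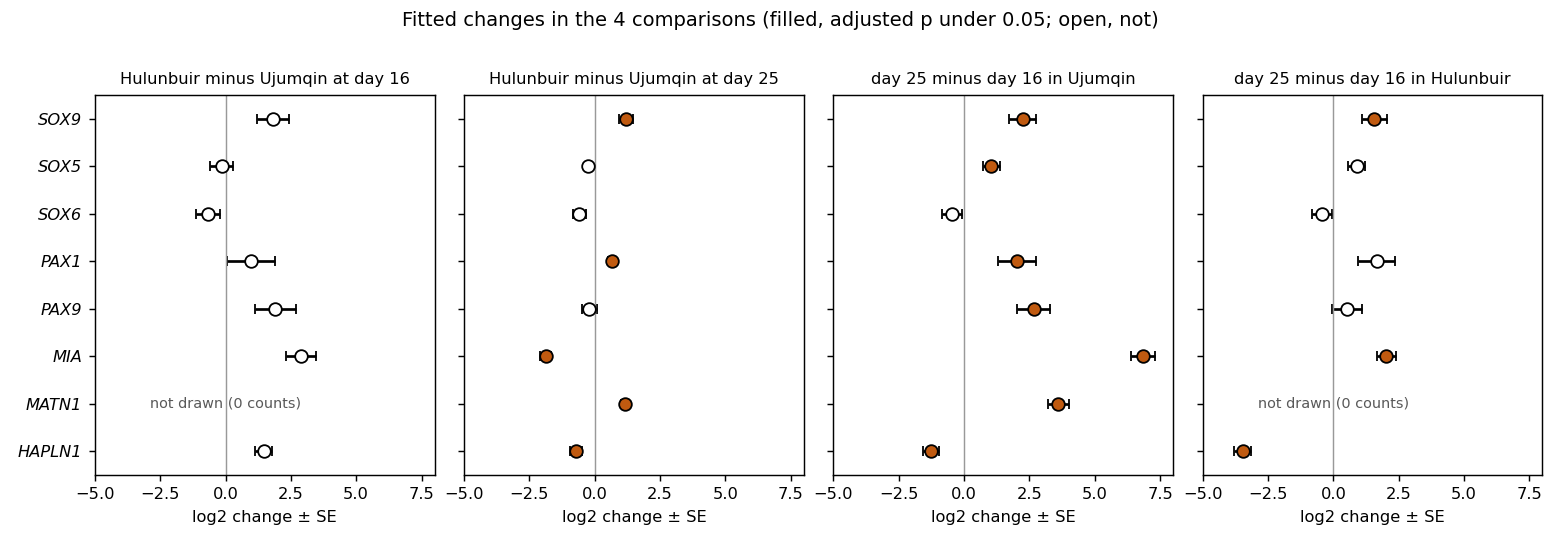
Fitted log2 changes of the 8 tested genes in the 4 comparisons between 2 groups, with standard errors as bars. Filled points have an adjusted p under 0.05. MATN1 is not drawn where Hulunbuir day 16, at 0 counts, is one of the groups. MIA is positive with age in both breeds and negative for Hulunbuir against Ujumqin at day 25, where SOX9, PAX1 and MATN1 are positive.

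Several members shared their order among the replicates of day 16, and others did not. In Hulunbuir day 16 embryos, replicate 3 was the highest of the 3 libraries for 6 of the 8 members with counts (SOX9, SOX5, PAX1, PAX9, ACAN and MIA), and replicate 2 was the lowest for 6, whereas SOX6 was highest in replicate 2. In Ujumqin day 16 embryos, replicate 3 was the highest for 7 of 9 members, replicate 2 was the lowest for 5, and replicate 1 was the lowest for the other 4 (SOX5, SOX6, PAX9 and MATN1). SOX9 and PAX1 ran from replicate 3 through 1 to 2 in both breeds. The ratio of the highest to the lowest library in Hulunbuir day 16 was 5.57 for SOX9, 5.73 for PAX1 and 9.37 for PAX9, against 1.24, 1.05 and 1.59 in Hulunbuir day 25. The summed FPKM of 7 dermomyotome and muscle markers had that order too, at 6.76, 2.70 and 11.8 in Ujumqin and 21.4, 6.12 and 45.2 in Hulunbuir. MYOD1 and MYF6 were at 0 in all Ujumqin day 16 libraries and MYOG in all Hulunbuir day 16 libraries. The sums of neural progenitor, pharyngeal endoderm, heart, limb and gonad markers also ran from replicate 3 through 1 to 2 in both breeds. Those of notochord, tendon, neural crest, neuron, erythroid, and liver and yolk sac markers did not keep this order in both breeds. Notochord sums ran from replicate 1 through 2 to 3, at 3028, 2048 and 1398 in Ujumqin and 4282, 3178 and 1350 in Hulunbuir. That list includes keratins shared with epithelia, so its sums do not stand for notochord alone. NOG, also on it, was at 16.2, 10.2 and 3.57 FPKM in Ujumqin and 11.3, 14.1 and 14.4 in Hulunbuir. The part of these markers in the members' spread was not tested.

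At day 25, markers of other tissues also differed between the breeds beside SOX9, PAX1, MIA and MATN1. Over all tested genes 46% were called at that age (23.3% higher and 22.7% lower in Hulunbuir). The summed FPKM of 7 erythroid markers ran from 15405 to 18235 in Hulunbuir and from 1818 to 2324 in Ujumqin, with 7 of 7 called higher. Those of 8 liver and yolk sac markers ran from 18246 to 19761 and from 4776 to 7219, with 7 of 8 called higher. Of 8 neural progenitor and glial markers, whose cells also use SOX9, 4 were higher and 1 lower, and their sums were 475 to 481 in Hulunbuir and 329 to 361 in Ujumqin. Of 9 neural crest markers 4 were higher and 2 lower, with sums of 112 to 116 and 89.3 to 117. Of 3 tested pharyngeal endoderm markers, whose cells also use PAX1 and PAX9, 1 was higher, and the sums over 7 markers were 23.9 to 24.7 in Hulunbuir and 14.9 to 18.2 in Ujumqin, with GCM2 at 0 in all Ujumqin day 25 libraries. Of 5 markers of tendon, which forms from cells next to the sclerotome, 4 were lower and 0 higher, with sums of 56.1 to 61.1 in Hulunbuir and 83.8 to 98.2 in Ujumqin. Of 7 dermomyotome and muscle markers 2 were higher and 0 lower, with sums of 56.8 to 63.9 and 37.3 to 43.9. The part of these markers in the members' levels was not tested.

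**Figure D4:**
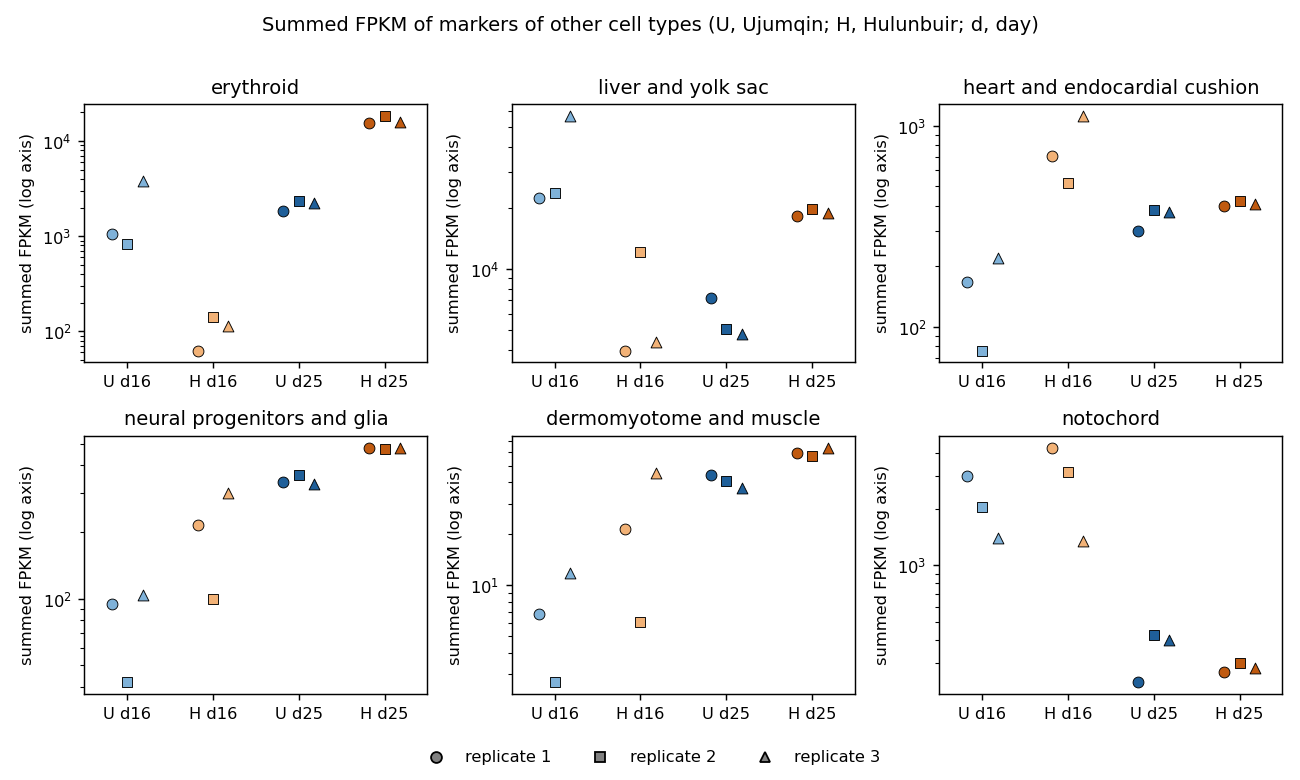
Summed FPKM of markers of 6 other cell types in each library, on log axes, with the shape giving the replicate number. The notochord list includes keratins shared with epithelia. Erythroid sums at day 25 are 1818 to 2324 in Ujumqin and 15405 to 18235 in Hulunbuir, and heart sums at day 16 are 75.9 to 219 in Ujumqin and 518 to 1118 in Hulunbuir.

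Most of the other cartilage matrix genes tested were lower in Hulunbuir embryos at day 25, as MIA was and MATN1 was not. Of 16 tested genes of a list of 22, 12 were lower, 0 higher and 4 not called. Over all tested genes 22.7% were called lower and 23.3% higher. The median log2 change of the 16 was -1.19 against 0.03 over all tested genes. COL11A2, a chain of the collagen that nucleates cartilage fibrils, was at 11.4, 6.57 and 7.63 FPKM in Ujumqin and 3.87, 4.31 and 3.56 in Hulunbuir (log2 change -1.44 ± 0.17, adjusted p = 0.000343). COL9A3, a chain of the fibril-associated collagen IX, was at 49.7, 40.6 and 38.7 FPKM in Ujumqin and 21.1, 20.8 and 21.8 in Hulunbuir (-1.34 ± 0.08, adjusted p = 1.62e-05). Both were separated between the breeds without overlap. MATN4, a relative of MATN1 named here after its values were seen, was at 6.53, 7.64 and 7.95 FPKM in Ujumqin and 3.56, 4.83 and 3.98 in Hulunbuir (-1.17 ± 0.18, adjusted p = 0.00101), the direction opposite to that of MATN1, and was not called in the 12-library fit (adjusted p = 0.213). COL2A1, the main fibrillar collagen of cartilage and a direct target of SOX9, was at 262, 235 and 227 FPKM in Ujumqin and 241, 238 and 239 in Hulunbuir, so that FPKM overlapped. Its log2 change on counts was -0.34 ± 0.07 (adjusted p = 0.00458), and neither limma on the FPKM scale nor the 12-library fit (adjusted p = 0.455) called it. The collagen gene COL27A1 (0.12 ± 0.14, adjusted p = 0.495) was not called. With the 12-library spread 6 genes of the list were lower and 0 higher, where 16.7% of all genes were called. Limma on FPKM gave 10 of the list lower and 1 higher.

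With age, 10 of the 16 cartilage matrix genes rose and 3 fell in Ujumqin, and 7 rose and 5 fell in Hulunbuir. Among all tested genes 30.7% rose and 32.9% fell in Ujumqin, and 18.9% rose and 21.6% fell in Hulunbuir. COL9A3 rose by 3.30 ± 0.24 in Hulunbuir (adjusted p = 7.41e-06), from 1.93, 1.31 and 2.70 FPKM at day 16, a rise in the direction of MIA and MATN1. MATN4 rose by 6.35 ± 0.82 in Ujumqin (adjusted p = 6.27e-05), from 0.194, 0.0386 and 0.0535 FPKM at day 16. It passed the filter through day 25 libraries only, and the size of its rise rests on values near 0. COL2A1 was already at 419.8, 200.1 and 325 FPKM in Hulunbuir day 16 libraries and changed there by -0.53 ± 0.33 (adjusted p = 0.211). VCAN, an embryonic proteoglycan that also binds hyaluronan, fell by 1.59 in Hulunbuir (SE 0.32, adjusted p = 0.00303), as HAPLN1 did. At day 16 no gene of the list was called between the breeds (1 with the replicate block): COL2A1 was at 96.8, 32.2 and 87.3 FPKM in Ujumqin (log2 change 2.04 ± 0.45, adjusted p = 0.12) and the log2 difference of VCAN was 0.99 ± 0.36 (adjusted p = 0.196). COL2A1 was called at day 16 with the replicate block (0.041), by voom (0.0117), in the 12-library fit (0.00502) and by DESeq2 (0.00022). Over all tested genes 0.0206% were called at day 16 in the 6-library fit, and 2.01% with the block. The interaction was called lower for 7 of the 16, where 10.3% of all tested genes were called lower and 8.89% higher. Among the 7 were COL11A2 (-2.54 ± 0.31, adjusted p = 0.000938) and COL9A2 (-2.77 ± 0.41, adjusted p = 0.00205). Their sign is that of MIA and opposite to that of MATN1.

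**Figure D5:**
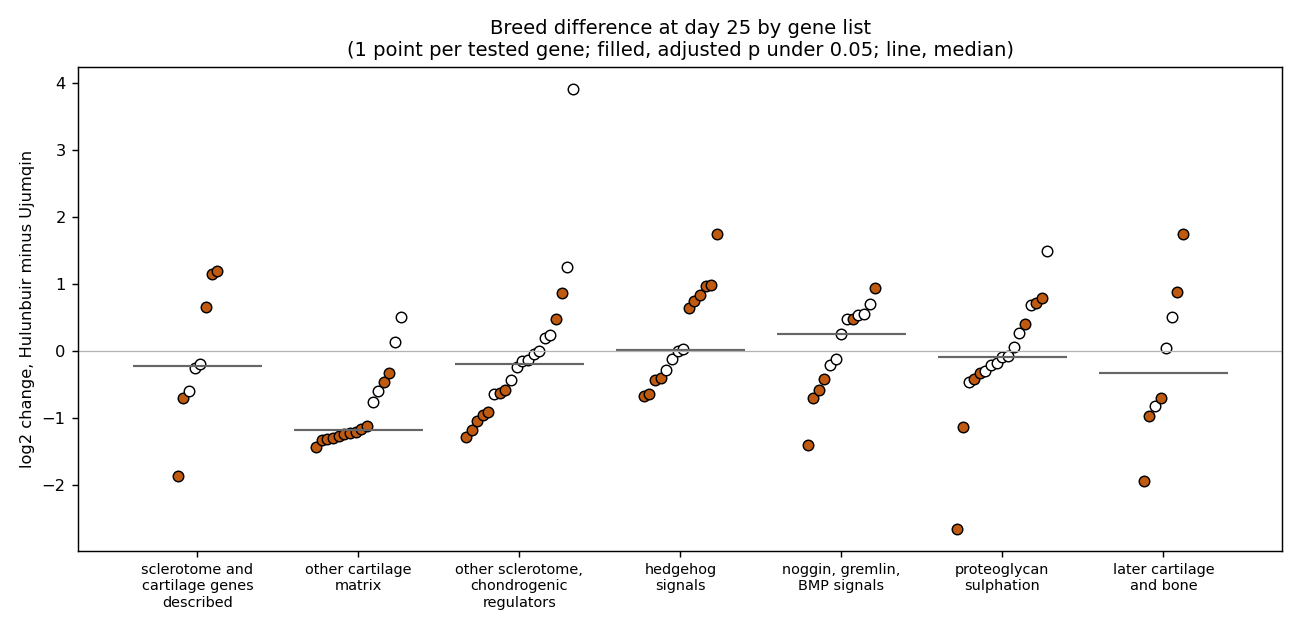
Log2 change between Hulunbuir and Ujumqin embryos at day 25 for each tested gene of 7 lists, beginning with the 8 tested members. Each point is a gene, filled where the adjusted p is under 0.05, and lines are medians. In the list of other cartilage matrix genes 12 of 16 are called lower and 0 higher, against 22.7% and 23.3% of all tested genes.

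Other regulators of the sclerotome and of cartilage formation did not share 1 direction at day 25. Of 20 tested genes, 2 were higher in Hulunbuir and 7 lower, with a median log2 change of -0.20 on counts. On counts 46% of all tested genes were called (23.3% higher and 22.7% lower). The FPKM scale gave 5 of the 20 higher and 5 lower and a median of 0.08. FOXC1, a forkhead factor of the sclerotome, was higher (0.87 ± 0.19, adjusted p = 0.00669), from 4.13 to 4.34 FPKM in Ujumqin and 8.87 to 11.1 in Hulunbuir, but was not called in the 12-library fit (adjusted p = 0.419). SIX2, a factor of mesenchymal progenitors, was lower (-1.19 ± 0.07, adjusted p = 1.67e-05), and so was the limb and facial mesenchyme factor PRRX2 (-1.05 ± 0.13, adjusted p = 0.000389). With age, 12 of the 20 rose and 3 fell in Ujumqin, and 5 rose and 3 fell in Hulunbuir. Over all tested genes 30.7% rose and 32.9% fell in Ujumqin, and 18.9% rose and 21.6% fell in Hulunbuir. SIX2 rose by 5.86 ± 0.39 in Ujumqin (adjusted p = 1.76e-06) and by 4.05 ± 0.36 in Hulunbuir (adjusted p = 2.7e-05). At day 16 it was at 0.301, 0.194 and 0.330 FPKM in Ujumqin and 0.251, 0.266 and 0.838 in Hulunbuir. SIX2 thus passed the filter through day 25 libraries only, and the sizes of its rises rest on low values. TWIST1, a basic helix-loop-helix factor of mesenchyme, was at 16.5, 7.14 and 18.3 FPKM in Ujumqin and 44.2, 23.6 and 81.2 in Hulunbuir at day 16 (1.70 ± 0.46, adjusted p = 0.139), and was called with the replicate block (0.043), in the 12-library fit (0.0113) and by DESeq2 (0.00761). It rose by 3.78 ± 0.39 with age in Ujumqin (adjusted p = 1.39e-05), and its interaction was -2.66 ± 0.50 (adjusted p = 0.00568).

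Of 14 tested genes of hedgehog signalling, which induces PAX1 and PAX9, 6 were higher and 4 lower in Hulunbuir at day 25. The share called over all tested genes was 46% (23.3% higher and 22.7% lower). The signal transducer SMO (0.83 ± 0.09, adjusted p = 0.000257) and GLI3 (0.97 ± 0.18, adjusted p = 0.00264), whose protein represses targets when the signal is absent, were higher, as PAX1 was. In the 12-library fit GLI3 was called and SMO was not (adjusted p = 0.0546). PTCH1, the receptor gene and a transcriptional target of the pathway, was higher (0.97 ± 0.17, adjusted p = 0.00235, and 0.0706 in the 12-library fit), at 1.34, 1.36 and 1.89 FPKM in Ujumqin and 3.91, 3.70 and 3.80 in Hulunbuir. GLI1, also a target of the pathway, was lower (-0.68 ± 0.10, adjusted p = 0.000827). Its FPKM were 9.80 to 11.4 in Ujumqin and 7.31 to 9.11 in Hulunbuir. IHH, among the ligand genes on the list, was higher at day 25 (1.74 ± 0.53, adjusted p = 0.0262). Its levels there were low, at 0.479, 0.196 and 0.453 FPKM in Ujumqin and 1.22, 2.61 and 0.978 in Hulunbuir. The call was lost without Hulunbuir day 25 replicate 2 (0.129) or Ujumqin day 25 replicate 2 (0.0731). It was also lost with the replicate block, in the 12-library fit (0.0984) and by voom (0.207). PTCH1 fell by 2.74 with age in Ujumqin (SE 0.34, adjusted p = 4.8e-05) and by 2.41 in Hulunbuir (SE 0.33, adjusted p = 0.000311). PAX1 and PAX9 rose in Ujumqin, and the PAX1 call was kept in 2 of 6 fits with a library left out. GLI1 rose with age in Ujumqin (1.54 ± 0.22, adjusted p = 0.000137), and in Hulunbuir its log2 difference was -0.07 ± 0.22 (adjusted p = 0.818). IHH fell by 5.27 in Ujumqin (SE 0.70, adjusted p = 7.62e-05) and by 3.95 in Hulunbuir (SE 0.64, adjusted p = 0.000757). Summed FPKM of 7 notochord markers, a list that includes keratins shared with epithelia, were 1350 to 4282 over the day 16 libraries and 236 to 423 over those of day 25.

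Genes whose levels ran most closely with a member over the 12 libraries, in log2(FPKM + 1), were found by Pearson correlation and are given as a description, since 12 libraries in 4 groups share their group means. For SOX9 they were KDM4A (r = 0.978) and AGAP2 (0.976), for PAX1 ME3 (0.984) and TSTD2 (0.977), and for PAX9 TRA2B (0.968) and MPV17 (0.965). For MIA they were CD72 (0.989) and ZNF205 (0.988), and for MATN1 ATP5MC1 (0.989) and GCDH (0.986). For HAPLN1 they were SIK1 (0.973) and HCN4 (0.969). For SOX5 they were ZCCHC9 (0.989) and PSPC1 (0.977), and for SOX6 ARFGEF1 (0.914) and LYST (0.899). By deviations from the 4 group means the nearest genes were others. They were SP1 for SOX9 (0.986), MYOM1 for PAX1 (0.990), TRIM33 for PAX9 (0.980) and POLE2 for MIA (0.943). For MATN1 it was TIMM22 (0.933), for HAPLN1 CCNK (0.971), for SOX5 USP24 (0.980) and for SOX6 PCNX4 (0.945).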

How the data were processed

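Bulk RNA was measured in 12 embryo libraries. Illumina libraries were made from TRIzol-extracted RNA, per the labels' protocols. Per the submitters' processing notes, cutadapt 1.9 and FastQC were used with the Oar_v3.1 genome. How reads were aligned and counted, and whether strand was used, is not given in the sources used here. Counts were deposited as unscaled whole numbers per gene. FPKM, also deposited, scale these counts by gene length and library, and read 0.0001 where the count is 0, taken here as 0. There were 0 unused sample columns.

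Counts were fitted with edgeR 4.0.16 in R 4.3.3 (TMM, quasi-likelihood, Benjamini-Hochberg, threshold 0.05, two-sided), after keeping genes with at least 1 FPKM in at least 3 libraries, and the fit was checked on simulated counts. Standard errors were taken from each log2 change and the root of its F statistic. Alternatives were RLE size factors, no filter, DESeq2 1.42.0, limma 3.58.1 on log2(FPKM + 1) and log2(FPKM + 0.1), voom with group weights, other sets of libraries, a replicate block and each library left out. Same-numbered libraries of the breeds deviated together at day 16 (r = 0.156, 0.307 and 0.381 over genes), and an alternative fit took the number as a block. The labels state no pairing, the r values come from these same data, and the main fit has no block. With that block 293 genes (2.01%) and 0 members were called, against 3 genes and 0 members without it.

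Members and lists were chosen with earlier results of these data known. List genes were named by a rule: per comparison, up to 2 called genes in each direction (greatest change among those whose higher group averaged 5 FPKM or more) and up to 2 uncalled genes of highest mean. Some genes under this rule are left out of the text. COL2A1, MATN4, PTCH1 and IHH at day 25, GLI1 with age, HAPLN3 beside ACAN and the ratios were chosen after values were seen.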

Additional observations from a re-analysis of the deposited data

Results flagged for a closer look

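The breed difference changed between day 16 and day 25 for 3 of the 8 tested members, by the interaction term of edgeR's quasi-likelihood fit over 12 libraries, where 19.2% of all tested genes were called (8.89% higher and 10.3% lower). MIA was higher in Hulunbuir than in Ujumqin in all libraries of day 16 and lower in all libraries of day 25 (interaction -4.80 ± 0.54, adjusted p = 0.000607). MATN1 had 0 counts in all Hulunbuir day 16 libraries, below Ujumqin, and was above Ujumqin in all libraries of day 25 (interaction adjusted p = 0.000486). HAPLN1 was higher in all Hulunbuir libraries at day 16 and overlapped between the breeds at day 25 (interaction -2.21 ± 0.42, adjusted p = 0.00629). Each of the 3 calls held when each of the 12 libraries was left out in turn (0.000267 to 0.00356 for MIA, 0.000195 to 0.0028 for MATN1 and 0.00135 to 0.0226 for HAPLN1). All of these fits use a spread shared by both ages, so leaving out libraries does not test that choice. Replicates varied more at day 16 (biological coefficient of variation 43.8%) than at day 25 (18.1%). In the edgeR fit of the day 16 libraries alone, none of the 3 was called between the breeds. The adjusted p there was 0.101 for MIA, 0.1 for MATN1 and 0.122 for HAPLN1. The interaction was not called for PAX9 (-2.15 ± 0.85, adjusted p = 0.0962), which was called without Hulunbuir day 16 replicate 2 (0.0259) and by DESeq2 (0.0494). It was not called for SOX9 (-0.67 ± 0.67, adjusted p = 0.51), PAX1 (-0.37 ± 0.97, adjusted p = 0.821), SOX5 (-0.15 ± 0.47, adjusted p = 0.847) or SOX6 (0.04 ± 0.55, adjusted p = 0.973).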

How the results depend on the processing

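The spread at day 16 and the number of libraries limit what can be called, and the causes of the changes below were not tested. For breed at day 16, 3 genes were called in the 6 libraries, against 2459 in the fit of 12 libraries, 1608 by DESeq2, 487 by voom, 293 with the replicate block, and 0 by limma on FPKM with a pseudocount of 1 and 0 with 0.1. Members called there went from 0 to 4 in 12 libraries (SOX9, MIA, MATN1 and HAPLN1), 4 by DESeq2 and 1 by voom. For breed at day 25 the 12-library fit called 2440 genes in place of 6716, and 1 member in place of 5. Leaving out each library gave 0 to 200 genes for breed at day 16, 4955 to 8117 at day 25, 8084 to 9072 for age in Ujumqin, 4129 to 5573 for age in Hulunbuir and 1561 to 3337 for the interaction. Members called then numbered 0 to 0, 4 to 5, 5 to 7, 3 to 7 and 3 to 4. The 7 came without Hulunbuir day 16 replicate 3.

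Of the members' log2 changes under the other settings, 274 of 312 kept their direction and side of the threshold, and 8 reversed, all on the FPKM scale and none called. These were SOX5 (0.055 and 0.070) and PAX9 (0.11 and 0.14) for breed at day 25, and for the interaction SOX5 (0.12 and 0.22), SOX9 (0.24) and PAX1 (0.21). With a library left out, 258 of 288 kept both and 12 reversed. Their ranges were -0.046 to 1.9 for PAX1 and -0.68 to 0.15 for SOX5 at day 16, and for the interaction -1.28 to 0.67 for PAX1, -0.39 to 0.38 for SOX5 and -0.29 to 0.47 for SOX6. GLI1, not called for age in Hulunbuir, reversed on the FPKM scale (0.089 and 0.10) and ran from -0.20 to 0.13 with a library left out. At day 25 the FPKM scale made 80.6% of called genes higher in Hulunbuir, against 50.6% on TMM counts. For age in Hulunbuir these shares were 64.1% and 46.6%, and for the interaction 74.1% and 46.3%.

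Outside breed at day 16, same-numbered libraries did not deviate together (r from -0.0617 to 0.0912). The replicate block gave 5 members and 6482 genes of 14595 for the day 25 breed difference, 7 members and 9223 genes for the Ujumqin age difference and 3 members and 2626 genes for the interaction. For the Hulunbuir age difference it gave 6 members and 5856 genes, where SOX5 (0.0228) and PAX1 (0.0313) were added.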

Other observations

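Of 13 tested genes of noggin, gremlin, BMP and other signals of chondrogenesis, 2 were higher and 4 lower in Hulunbuir embryos at day 25. FGFR3, TGFB2, PTHLH and PTH1R on that list are outside BMP signalling. Among all tested genes 46% were called there (23.3% higher and 22.7% lower). With age in Ujumqin 3 of the 13 rose and 9 fell, where 63.6% of all genes were called (30.7% higher and 32.9% lower). FGFR3, a receptor that restrains cartilage growth, was at 6.53, 5.80 and 4.81 FPKM in Ujumqin and 13.2, 12.4 and 15.4 in Hulunbuir at day 25 (log2 change 0.93 ± 0.13, adjusted p = 0.000693 by edgeR). At day 16 it was at 16.1, 16.9 and 19.3 FPKM in Ujumqin and 15.9, 12.7 and 15.0 in Hulunbuir, and its interaction was 1.23 ± 0.21 (adjusted p = 0.00361). PTH1R, the receptor for parathyroid hormone-related protein in cartilage, was lower in Hulunbuir at day 25 (-0.71 ± 0.07, adjusted p = 0.000123).

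Of 17 tested genes of proteoglycan sulphation and assembly, 10 fell and 1 rose with age in Ujumqin, and 7 fell and 0 rose in Hulunbuir. Among all tested genes 63.6% were called with age in Ujumqin (32.9% lower) and 40.5% in Hulunbuir (21.6% lower). SLC26A2, the sulphate transporter needed for cartilage proteoglycans, fell by 3.23 in Ujumqin (SE 0.37, adjusted p = 3.01e-05) and by 2.07 in Hulunbuir (SE 0.35, adjusted p = 0.00108). HAS2, which makes the hyaluronan bound by ACAN and HAPLN1, was lower in Hulunbuir at day 25 (-1.14 ± 0.18, adjusted p = 0.00121), but was not called in the 12-library fit (adjusted p = 0.163). Of 8 tested genes of later cartilage and bone, 2 were higher and 3 lower at day 25, where 46% of all genes were called. IHH and PTH1R on this list are also counted in the lists of signals above. COL1A1, the main collagen of bone and fibrous tissue, was at 4245, 2251 and 2068 FPKM in Ujumqin and 919.7, 904 and 936 in Hulunbuir (-1.94 ± 0.22, adjusted p = 0.000279).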
